A study of Mus musculus with 12 samples.

Results

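The genes followed here set the first step of the cell cycle in blood stem and progenitor cells, and were taken by gene symbol from the RNA-seq counts. They comprised 5 CDK inhibitors (*Cdkn1b*, *Cdkn1c*, *Cdkn2a*, *Cdkn2c*, and *Cdkn2d*), 3 D cyclins (*Ccnd1*, *Ccnd2*, and *Ccnd3*), and the 2 kinases that D cyclins activate (*Cdk4* and *Cdk6*), 10 of the 46078 genes counted. All 10 were found by their Ensembl identifiers. The measurements came from 12 libraries of C57BL/6 mouse bone marrow cells, 3 in each of 4 groups. LSK cells (lineage-negative, Sca-1+, c-Kit+ cells, which hold the stem cells and early progenitors) were infected with a lentivirus that carried GFP and an shRNA against either luciferase (shLuci, the control) or *Rad21*, a subunit of the cohesin ring (shRad21). In the culture experiment, infected cells grew for 3 d with cytokines, and GFP+CD48-Sca-1+ cells were sorted. In the in vivo experiment, infected cells were transplanted into lethally irradiated mice, and GFP+ LSK cells (called KSL in the labels) were sorted 3 mo later by the labels, where the study's methods give another time. All 12 libraries therefore came from infected, GFP-sorted cells. Which *Rad21* shRNA was used for these libraries, and whether mice were pooled, is not given in the sources used here. Nothing in them states that replicates came from separate cultures or animals, so the p-values measure the spread between these samples, which may be technical.

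CDK inhibitors of the CIP/KIP family (*Cdkn1b* and *Cdkn1c* here) bind cyclin and kinase together, whereas INK4 inhibitors (*Cdkn2a*, *Cdkn2c*, and *Cdkn2d*) bind Cdk4 and Cdk6 and keep D cyclins from them. Active complexes of a D cyclin with Cdk4 or Cdk6 phosphorylate the retinoblastoma protein, which releases E2F factors and lets a cell leave G1. In stem cells of the bone marrow, *Cdkn1c* and *Cdkn1b* are known for holding cells in quiescence, and *Cdk6* for the exit from it. Much of this control acts on protein amount and location, which mRNA counts do not show.

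*Rad21* itself fell in both experiments, with no overlap between the groups. In culture its level was 384, 419, and 405 CPM (counts scaled to a common library size by TMM over all 12 libraries) in the shLuci libraries and 154, 137, and 128 CPM in the shRad21 libraries. This was 34.8% of control in culture and 37.2% in vivo. Library totals lay between 15235129 and 29846689 counts, so a floor of 3 counts equals between 0.101 and 0.197 CPM, for counting error only. None of 12 stem and progenitor markers was at 0 in any group, and their summed level was between 3232 and 3612 CPM in culture and between 4698 and 5052 CPM in vivo. Among them *Slamf1*, which marks stem cells, rose in both experiments (log2 fold changes of 1.21 in culture and 2.05 in vivo), and *Kit* and *Flt3* fell in both (-1.42 and -1.12 in culture, and -0.42 and -1.61 in vivo). Markers listed for other lineages moved with the knockdown as well. In vivo, 9 neutrophil markers summed to between 1466 and 1813 CPM in shLuci and between 1034 and 1176 CPM in shRad21 libraries. Most of this was *Mpo*, the only one of 8 tested that was called lower, beside 5.32% of all genes. The 6 megakaryocyte markers summed to between 261 and 326 CPM in shLuci and between 599 and 738 CPM in shRad21 libraries in vivo. *Itga2b* made up most of this (group means of 215.5 and 430.2 CPM). *Vwf*, which the paper also takes as a marker of myeloid-biased stem cells, went from 15.8 to 139.6 CPM. Of the 6, 4 were called higher and 0 lower in vivo, beside 5.65% and 5.32% of all genes. The list split in culture, with 4 called higher and 2 (*Pf4* and *Ppbp*) lower, beside 6.18% and 8.06% of all genes. In culture, 8 monocyte and macrophage markers summed to between 181 and 244 CPM in shLuci and between 165 and 176 CPM in shRad21 libraries. Most of this was *Lyz2*, which was not called. Of the 6 tested there, 5 fell, beside 8.06% of all genes, and the median log2 fold change was -1.64. In vivo 5 of 8 tested fell, beside 5.32% of all genes, with a median of -1.01. The 11 B and plasma cell markers summed to between 1304 and 3955 CPM in shLuci and between 1188 and 2438 CPM in shRad21 libraries in vivo, and to at most 128 CPM in culture, where *Ms4a1* and *Igkc* had 0 counts. The part of these cell types in the changes that follow was not tested, and in bulk libraries fewer cells of a type and less RNA per cell cannot be told apart.

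The 250 bases before the start site are shown for 5 genes that the results turn on, 1 start per gene, from RefSeq and build GRCm38.p6, read 5′ to 3′ on the gene's strand. Capitals mark exact matches, on either strand, to 6 motifs: TTTCCCGC and TTTGGCGC (E2F), the FOXO motif GTAAACA, the box bound by the NF-Y complex, which reads CCAAT, the E-box that MYC binds, which reads CACGTG, and the box of SP factors, which reads GGGCGG. A match is a description of the letters and not a site in use.
Cdkn1b, chr6:134920151-134920400, plus strand: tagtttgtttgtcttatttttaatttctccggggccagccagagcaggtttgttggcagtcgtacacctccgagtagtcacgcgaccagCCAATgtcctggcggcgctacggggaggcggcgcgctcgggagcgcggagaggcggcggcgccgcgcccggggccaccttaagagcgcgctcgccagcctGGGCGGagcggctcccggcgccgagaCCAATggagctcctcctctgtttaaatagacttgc
Cdkn2c, chr4:109666757-109667006, minus strand: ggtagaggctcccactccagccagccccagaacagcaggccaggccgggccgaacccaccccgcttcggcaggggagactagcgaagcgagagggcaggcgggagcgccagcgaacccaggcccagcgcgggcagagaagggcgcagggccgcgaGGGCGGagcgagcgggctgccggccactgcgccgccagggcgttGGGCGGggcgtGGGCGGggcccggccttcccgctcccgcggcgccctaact
Ccnd3, chr17:47593217-47593466, plus strand: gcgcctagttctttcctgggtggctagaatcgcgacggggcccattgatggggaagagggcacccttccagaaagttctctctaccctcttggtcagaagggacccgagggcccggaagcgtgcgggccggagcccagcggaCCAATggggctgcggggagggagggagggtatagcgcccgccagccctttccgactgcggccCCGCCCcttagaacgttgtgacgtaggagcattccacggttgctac
Cdk6, chr5:3343643-3343892, plus strand: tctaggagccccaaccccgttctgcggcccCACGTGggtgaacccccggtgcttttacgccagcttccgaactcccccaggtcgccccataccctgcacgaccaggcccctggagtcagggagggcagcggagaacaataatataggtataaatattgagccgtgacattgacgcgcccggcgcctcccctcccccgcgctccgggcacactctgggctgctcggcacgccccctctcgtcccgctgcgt
Cdk4, chr10:127063285-127063534, plus strand: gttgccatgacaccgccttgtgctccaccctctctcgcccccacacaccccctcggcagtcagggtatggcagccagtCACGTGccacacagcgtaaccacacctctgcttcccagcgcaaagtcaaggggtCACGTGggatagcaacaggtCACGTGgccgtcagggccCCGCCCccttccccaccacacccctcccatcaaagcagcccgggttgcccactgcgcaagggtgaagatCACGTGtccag
The 2 *Cdkn1b* matches to CCAAT, beside 1 to GGGCGG, are read against 33.8% of 32851 mouse promoters of this length that hold CCAAT at least once. The *Cdkn2c* sequence shown, 77.2% G or C, held 3 matches to GGGCGG, which 32.7% of promoters hold. A second *Cdkn2c* start, not shown, was 42.8% G or C and held no match. The *Ccnd3* start shown held 1 CCAAT and 1 GGGCGG. The *Cdk4* sequence held 4 copies of CACGTG and 1 GGGCGG, and that of *Cdk6* a single CACGTG, a motif found in 6.02% of promoters. None of the 5 sequences held either E2F motif, found in 0.895% and 0.417% of promoters, or the FOXO motif, found in 3.17%, although the upstream of the 2 *Ccnd3* starts, not shown, held 1 FOXO match. No match overlapped another.

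In cultured cells, knockdown of *Rad21* raised 4 of the genes and lowered 1. *Cdkn1b*, *Ccnd3*, *Cdkn2c*, and *Ccnd2* rose by between 1.23-fold and 1.55-fold, and *Cdk6* fell to 64.8% of control. Of 9 genes that passed the filter on low counts, 5 passed an adjusted p of 0.05 in the quasi-likelihood test of edgeR, adjusted after Benjamini and Hochberg over 15543 genes, of which 14.2% passed (6.18% higher and 8.06% lower). The median log2 fold change was 0.08 over the 9 genes and -0.004 over all genes tested. This test did not pair libraries by replicate number. With that number as a block, 6 of the 9 passed, with *Ccnd1* added, beside 3186 of all genes. The shRad21 and shLuci libraries did not overlap for those 5 genes, as for 31.5% of all genes tested.

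In reisolated cells, knockdown raised *Cdkn1c* and *Ccnd3* and lowered *Cdkn2c*. *Cdkn1c* was 1.57-fold and *Ccnd3* 1.24-fold higher, and *Cdkn2c* fell to 73% of control. These were 3 of 9 genes, with 11% of 15938 genes called in the same test (5.65% higher and 5.32% lower) and a median log2 fold change of -0.03 beside -0.002 over all genes. No overlap between groups was seen for 5, *Cdkn1c*, *Cdkn2c*, *Ccnd3*, *Cdk4*, and *Cdk6*, as for 29.1% of all genes. Without the shRad21 in vivo library of replicate 3, none of the 9 genes passed the threshold with edgeR, and without that of replicate 1 only *Cdkn2c* did. *Ccnd3* was the one gene of the 9 tested that passed the threshold upward in both experiments.

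**Figure D1:**
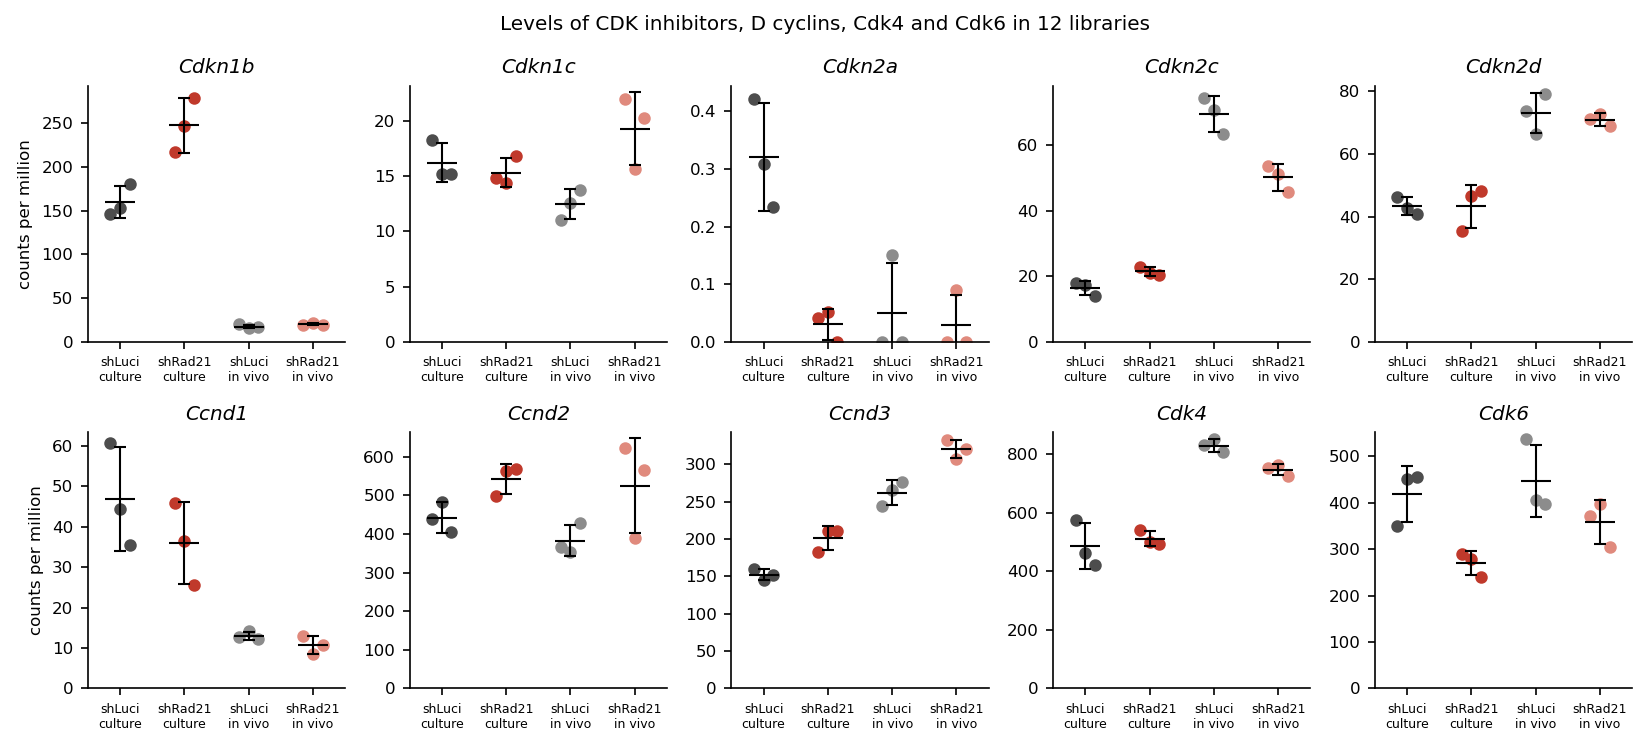
Level of each of the 10 genes in CPM (vertical axes, each from 0) in the 12 libraries, by group (horizontal axes). Points are libraries and bars the mean and SD of 3. The shRad21 points lie above the shLuci points in culture for Cdkn1b, Cdkn2c, Ccnd2, and Ccnd3 and below them for Cdk6, while Cdkn1b is under 22 CPM in all in vivo libraries.

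*Cdkn1b* (chr6:134920401-134925513, GRCm38, plus strand) showed the clearest rise in culture. Its level was 146, 153, and 181 CPM in the shLuci libraries and 217, 247, and 279 CPM in the shRad21 libraries of the culture experiment. All 3 knockdown libraries lay above all 3 controls, and the log2 fold change was 0.64 ± 0.11 (SE, n = 3 per group, adjusted p = 0.0031 by edgeR). In vivo the same gene was at 19.9, 15.6, and 16.8 CPM with shLuci and at 19.2, 21.7, and 19.4 CPM with shRad21. These groups overlapped, with a log2 fold change of 0.22 ± 0.13 (SE) and an adjusted p of 0.335 by edgeR. The *Cdkn1b* call in culture held in each of the 13 alternatives run, with an adjusted p of at most 0.0237.

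*Cdkn1c* (chr7:143458339-143461050, minus strand), an imprinted gene expressed from the maternal copy, moved in vivo. The shLuci libraries held 11.03, 12.6, and 13.8 CPM and the shRad21 libraries 22.0, 15.6, and 20.2 CPM. The lowest knockdown library, replicate 2, was above the highest control, and the log2 fold change was 0.65 ± 0.15 (SE, adjusted p = 0.0246 by edgeR). The adjusted p by edgeR was 0.0725 without shLuci replicate 1, 0.0727 without shLuci replicate 2, 0.0918 without shRad21 replicate 1, and 0.103 without shRad21 replicate 3. In culture, with 18.2, 15.2, and 15.2 CPM in shLuci and 14.8, 14.3, and 16.8 CPM in shRad21 libraries, the log2 fold change was -0.07 ± 0.12 (SE, adjusted p = 0.787 by edgeR). Of its 2039 exonic bases, 30.7% overlap Gm44732 on the opposite strand, and the strand setting of the counting is not given in the sources used here, so reads from the 2 strands cannot be told apart there.

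Among the INK4 genes, *Cdkn2c* (chr4:109660876-109667189, minus strand) moved in opposite directions in the 2 experiments. In culture it was at 17.9, 17.2, and 14.1 CPM with shLuci and at 23.0, 20.9, and 20.5 CPM with shRad21. The 3 knockdown libraries were the higher ones, by a log2 fold change of 0.40 ± 0.12 (SE, adjusted p = 0.0499 by edgeR). In vivo the order was the reverse, with 74.3, 70.6, and 63.4 CPM in shLuci and 53.6, 51.1, and 45.7 CPM in shRad21 libraries, a log2 fold change of -0.45 ± 0.09 (SE, adjusted p = 0.0101 by edgeR). The call in culture sat at the threshold and was lost in 7 of 13 alternatives. It held without shLuci replicate 1 and was lost by edgeR without shLuci replicate 2 (adjusted p = 0.0937), without shLuci replicate 3 (0.0846), and without shRad21 replicate 1 (0.15), 2 (0.134), or 3 (0.0961). The call in vivo was lost without shRad21 replicate 3 (adjusted p = 0.0548 by edgeR). The difference between the 2 experiments was itself past the threshold, as given with the interaction.

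*Cdkn2d* (chr9:21288410-21291407, minus strand) passed the threshold in neither knockdown comparison. It was at 46.4, 42.7, and 41.0 CPM with shLuci and at 35.5, 46.5, and 48.0 CPM with shRad21 in culture. In vivo the values were 73.8, 66.2, and 79.1 CPM and 71.1, 72.9, and 68.9 CPM. The groups overlapped in both experiments, and the log2 fold changes were 0.01 ± 0.12 (SE) in culture and -0.03 ± 0.08 (SE) in vivo, with adjusted p of 0.977 and 0.884 by edgeR.

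*Cdkn2a* (chr4:89274471-89294653, minus strand), whose locus encodes an INK4 inhibitor and the unrelated protein ARF from separate first exons, was almost silent and did not pass the filter. The shLuci libraries in culture had 6, 6, and 5 counts and the shRad21 libraries 1, 1, and 0 counts. In vivo the shLuci libraries had 0, 3, and 0 counts and the shRad21 libraries 0, 2, and 0 counts. In culture the knockdown libraries were all below the controls, and 2 counts against 17 gave a rate ratio of 0.0899 (95% Clopper-Pearson interval 0.0101 to 0.379, which covers counting error only). Without the filter, the edgeR test over all genes with a count gave an adjusted p of 0.00706 in culture and 0.91 in vivo. Counts per gene do not separate the 2 transcripts.

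The D cyclins differed in their response. *Ccnd3* (chr17:47505051-47599691, plus strand) was at 159, 145, and 151 CPM with shLuci and at 182, 211, and 211 CPM with shRad21 in culture. In vivo it was at 244, 265, and 277 CPM with shLuci and at 333, 308, and 321 CPM with shRad21. Knockdown libraries were above all controls in both experiments, with log2 fold changes of 0.42 ± 0.08 (SE, adjusted p = 0.00712 by edgeR) in culture and 0.31 ± 0.07 (SE, adjusted p = 0.0147) in vivo. In vivo the call was lost by edgeR without shRad21 replicate 1 (adjusted p = 0.0558) or replicate 3 (0.061), and in culture it held in all 13 alternatives. A processed pseudogene, *Ccnd3-ps*, carried between 11.3% and 12.3% of the CPM of *Ccnd3* in the group means and had log2 fold changes of 0.42 and 0.32, so the 2 may share reads and their split is uncertain. *Bysl*, which overlaps 4.11% of the *Ccnd3* exonic bases on the opposite strand, was at 39.0 (shLuci) and 36.6 CPM (shRad21) in culture and at 50.04 and 51.5 CPM in vivo, as group means.

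*Ccnd2* (chr6:127125162-127152193, minus strand) was the most abundant D cyclin per exonic kilobase in every library. In culture it was at 438, 484, and 406 CPM with shLuci and at 499, 563, and 568 CPM with shRad21. The knockdown libraries were all higher, by a log2 fold change of 0.30 ± 0.09 (SE, adjusted p = 0.04997 by edgeR). This call was lost by edgeR without shLuci replicate 1 (adjusted p = 0.109) or 3 (0.0767) and without shRad21 replicate 2 (0.185) or 3 (0.169), and in 6 of 13 alternatives in all. In vivo the shLuci libraries held 367, 354, and 429 CPM and the shRad21 libraries 624, 389, and 565 CPM. Replicate 2 of the knockdown lay within the range of the controls, and the log2 fold change of 0.47 ± 0.15 (SE) had an adjusted p of 0.0716 by edgeR. Without that library the log2 fold change was 0.65 and the adjusted p 0.00319 by edgeR, and 5 of 13 alternatives in all passed.

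*Ccnd1* (chr7:144929931-144939925, minus strand) was lower on average after knockdown without passing the threshold. It was at 60.7, 44.3, and 35.4 CPM with shLuci and at 45.8, 36.6, and 25.6 CPM with shRad21 in culture, and at 12.7, 14.1, and 12.1 CPM and 13.0, 8.40, and 10.8 CPM in vivo. The groups overlapped in both experiments. The log2 fold changes were -0.37 ± 0.22 (SE, adjusted p = 0.319 by edgeR) and -0.26 ± 0.17 (SE, adjusted p = 0.399). In culture each knockdown library was below the control of the same replicate number, and with the replicate number as a block the log2 fold change of -0.38 had an adjusted p of 0.00648 by edgeR. It also passed without the filter (adjusted p = 0.0186), and in none of the other 11 alternatives. *LTO1*, which overlaps 23.4% of the *Ccnd1* exonic bases on the opposite strand, was at group means of 23.9 (shLuci) and 27.8 CPM (shRad21) in culture and 29.3 and 31.6 CPM in vivo.

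Of the 2 kinases, *Cdk6* (chr5:3341485-3531008, plus strand) fell in culture. It was at 349, 451, and 455 CPM with shLuci and at 290, 279, and 240 CPM with shRad21. All knockdown libraries were below all controls, by a log2 fold change of -0.63 ± 0.12 (SE, adjusted p = 0.00429 by edgeR), and the call held in all 13 alternatives. In vivo, with 537, 406, and 398 CPM in shLuci and 372, 398, and 305 CPM in shRad21 libraries, the groups just failed to overlap and the log2 fold change of -0.30 ± 0.13 (SE) had an adjusted p of 0.181 by edgeR, which passed in 1 of 13 alternatives, that without the filter (adjusted p = 0.00584). *Cdk4* (chr10:127063534-127067920, plus strand), the more abundant kinase per exonic kilobase in every library, was at 573, 463, and 421 CPM with shLuci and 540, 501, and 493 CPM with shRad21 in culture. Its in vivo values were 830, 850, and 806 CPM with shLuci and 752, 761, and 725 CPM with shRad21, a narrow spread with no overlap. The log2 fold changes of 0.08 ± 0.11 (SE) and -0.14 ± 0.05 (SE) had adjusted p of 0.702 and 0.159 by edgeR. *Tspan31* overlaps 19.7% of the *Cdk4* exonic bases on the opposite strand. Its group means were 81.2 (shLuci) and 76.7 CPM (shRad21) in culture and 93.1 and 94.5 CPM in vivo. With the strand setting not given, reads from the 2 strands cannot be told apart there.

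**Figure D2:**
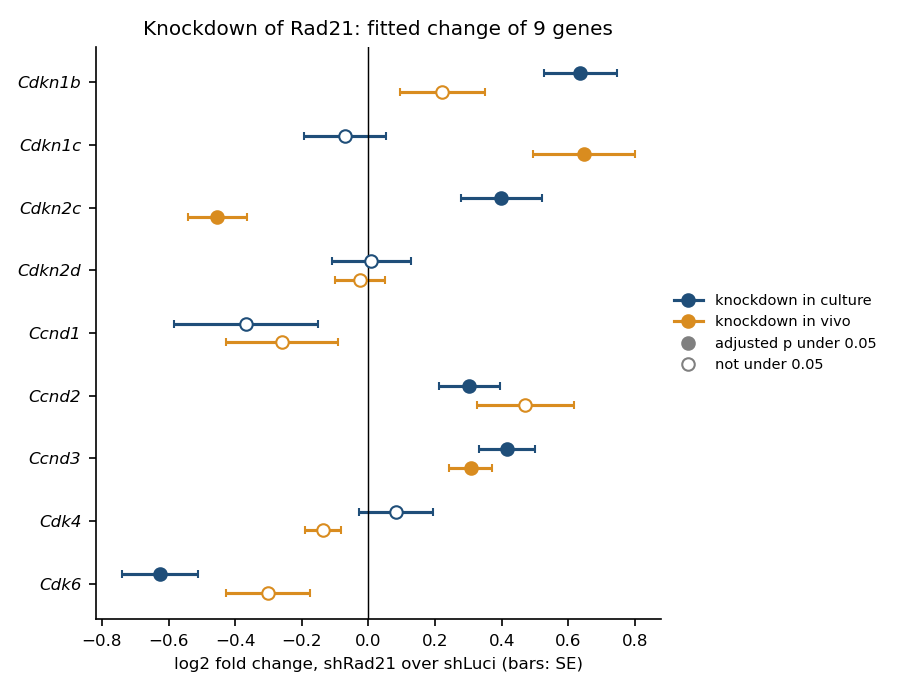
Fitted log2 fold change of shRad21 over shLuci (horizontal axis, bars are SE) for the 9 genes tested (vertical axis), in culture and in vivo. Filled points have an adjusted p under 0.05. Ccnd3 is filled and to the right in both experiments, Cdkn2c is filled on opposite sides, and Cdkn2d lies near 0 in both.

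To ask whether the response to knockdown differed between the experiments, the interaction of knockdown and experiment was tested over all 12 libraries, and 4.67% of 17050 genes passed (1.64% higher and 3.03% lower). Of the 9 genes only *Cdkn2c* did, with a difference in log2 fold change (culture minus in vivo) of 0.86 ± 0.15 (SE, adjusted p = 0.00367 by edgeR). It passed in each of the 18 alternatives run, with an adjusted p of at most 0.0142. For *Cdkn1c* the difference was -0.71 ± 0.21 (SE, adjusted p = 0.0655 by edgeR), and it passed in 4 of 18 alternatives, DESeq2 (adjusted p = 0.0214), no filter, the stricter filter, and the omission of shRad21 in vivo replicate 2 (-0.85, adjusted p = 0.0218 by edgeR). For *Cdkn1b* it was 0.42 ± 0.16 (SE, adjusted p = 0.177 by edgeR), so the rise in culture was not shown to differ from the value in vivo. The other 6 genes had adjusted p between 0.398 and 0.938 by edgeR.

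The control libraries of the 2 experiments differed far more than knockdown and control did. *Cdkn1b* was 9.16-fold higher in cultured than in reisolated control cells and *Ccnd1* 3.6-fold higher, while *Cdkn2c* in culture was at 23.5% of its level in vivo. Culture or transplantation, the sorted population, the library kit (TruSeq RNA v2 or SMART-Seq v4 with Nextera XT), and the sequencing lane changed together and cannot be told apart. Of the 9 genes, 7 passed, beside 74.2% of 17050 genes (37.1% higher and 37.1% lower), and those 7 did not overlap, as for 74.9% of all genes. The 3 that were higher in culture were *Cdkn1b* (log2 difference 3.20 ± 0.12, SE), *Ccnd1* (1.85 ± 0.22), and *Cdkn1c* (0.38 ± 0.15), with adjusted p of 1.06e-11, 2.7e-06, and 0.0303 by edgeR. The 4 that were lower were *Cdkn2c* (-2.09 ± 0.11), *Ccnd3* (-0.79 ± 0.08), *Cdk4* (-0.77 ± 0.09), and *Cdkn2d* (-0.75 ± 0.11), with adjusted p of at most 1.64e-05 by edgeR. *Ccnd2* (0.21 ± 0.14) and *Cdk6* (-0.09 ± 0.13) had adjusted p of 0.18 and 0.538 by edgeR. Upper-quartile scaling moved the median of all genes to -0.12 and scaling by library size to -0.18, beside -0.006 here. The *Cdkn1c* call was lost under both (0.26 and 0.20), and without shLuci culture replicate 1 (adjusted p = 0.106 by edgeR), shLuci in vivo replicate 1 (0.105), or shLuci in vivo replicate 2 (0.0558).

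**Figure D3:**
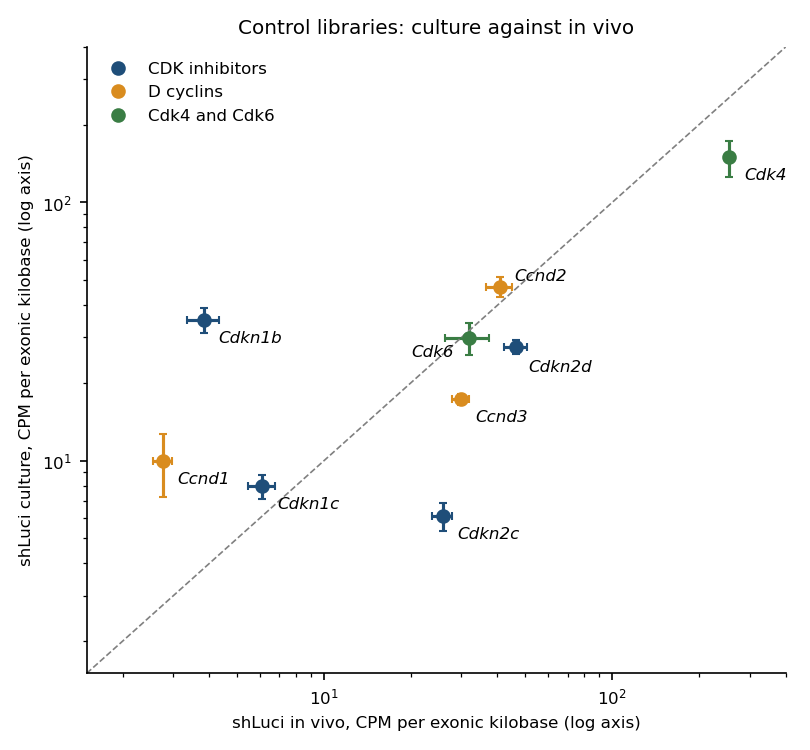
Level of 9 genes per exonic kilobase in shLuci libraries, in vivo (horizontal log axis) against culture (vertical log axis), as the mean and SD of 3 libraries each. The dashed line marks equal levels. Cdkn1b and Ccnd1 lie far above it and Cdkn2c far below it, with Cdk6 and Ccnd2 near it.

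Per exonic kilobase, *Cdk4* had the highest level of the 10 genes in every group, from 149 ± 24.2 CPM per kb (SD, n = 3) in cultured to 255 ± 6.87 CPM per kb in reisolated control cells, and *Cdkn2a* the lowest. In cultured control cells *Ccnd2* came next (47.1 ± 4.17 CPM per kb), clear of *Cdkn1b* (35.2 ± 4.02), *Cdk6* (29.9 ± 4.31), and *Cdkn2d* (27.5 ± 1.76), each of which overlapped the next. They were followed by *Ccnd3* (17.3 ± 0.833), then by *Ccnd1* (9.94 ± 2.73) and *Cdkn1c* (7.96 ± 0.86), which overlapped, and by *Cdkn2c* (6.11 ± 0.752). In reisolated control cells *Cdkn2d* (46.4 ± 4.1 CPM per kb), *Ccnd2* (40.7 ± 4.25), *Cdk6* (31.9 ± 5.57), and *Ccnd3* (29.8 ± 1.91) followed *Cdk4*, each overlapping the next, and *Cdkn2c* (25.8 ± 2.06) came before *Cdkn1c* (6.11 ± 0.67), *Cdkn1b* (3.84 ± 0.487), and *Ccnd1* (2.76 ± 0.213), without overlap. *Cdkn1b* was thus above *Cdkn2c* in culture and below it in vivo. The lengths join the exons of all annotated transcripts, so ranks between genes depend on which transcripts the cells use, which was not examined.

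The make-up of the 5 inhibitors followed here differed between the experiments. *Cdkn1b* and *Cdkn1c* together held 55.9% ± 3.64 (SD, n = 3) of their summed counts per kilobase in cultured control cells and 12.1% ± 0.42 in reisolated ones. With shRad21 the shares were 63.5% ± 1.29 and 17.9% ± 1.65, without overlap with the controls in either experiment. In culture the share of *Cdkn1b* was 45.6% ± 4.57 with shLuci and 55.8% ± 1.05 with shRad21, and that of *Cdkn2d* 35.8% ± 2.48 and 28.2% ± 1.9. In vivo the share of *Cdkn1c* was 7.44% ± 0.88 with shLuci and 12.2% ± 2.03 with shRad21, and that of *Cdkn2c* 31.5% ± 3.05 and 24.0% ± 1.16. These sums leave out the family members *Cdkn1a* and *Cdkn2b*. With both added, the 3 CIP/KIP genes held 71.9% ± 1.4 with shLuci and 70.7% ± 0.49 with shRad21 in culture, and 17.0% ± 1.05 and 19.4% ± 1.38 in vivo, and the groups overlapped in both experiments. The difference between knockdown and control thus held for *Cdkn1b* and *Cdkn1c* among the 5 genes and not for the whole family. These shares were computed after the values of the single genes had been seen and are given with no test.

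By counts per exonic kilobase, *Ccnd2* held the largest share of the D cyclins. The lengths join the exons of all annotated transcripts (9409 bases for *Ccnd2* and 8775 for *Ccnd3*). Shares between genes therefore depend on which transcripts the cells use, which was not examined. In cultured control cells *Ccnd1*, *Ccnd2*, and *Ccnd3* held 13.3% ± 2.94, 63.4% ± 3.28, and 23.4% ± 2.02 (SD, n = 3) of the summed D cyclin counts per kilobase. In reisolated control cells the shares were 3.78% ± 0.5, 55.5% ± 2.13, and 40.7% ± 1.69. With shRad21 the *Ccnd1* share was 8.72% ± 2.81 in culture, overlapping the controls, and 2.39% ± 0.16 in vivo, where its range of 2.28% to 2.57% lay below the control range of 3.23% to 4.22%. The summed level of the 3 D cyclins was 74.3 ± 5.53 CPM per kb with shLuci and 88.3 ± 4.27 with shRad21 in culture, without overlap, and 73.3 ± 5.55 and 94.7 ± 14.9 in vivo, where shRad21 replicate 2 (78.1) lay within the control range. The log2 ratio of *Cdk4* to *Cdk6* per kilobase was 2.32 ± 0.44 with shLuci and 3.03 ± 0.1 with shRad21 in culture. Replicate 1 of the cultured controls (2.82) stood apart from replicates 2 (2.15) and 3 (1.99), and all were below the knockdown libraries. In vivo the ratios of 3.01 ± 0.24 and 3.17 ± 0.16 overlapped. With 3 against 3 libraries an exact permutation test cannot go below a p of 0.1, so no test was made of these shares and ratios.

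**Figure D4:**
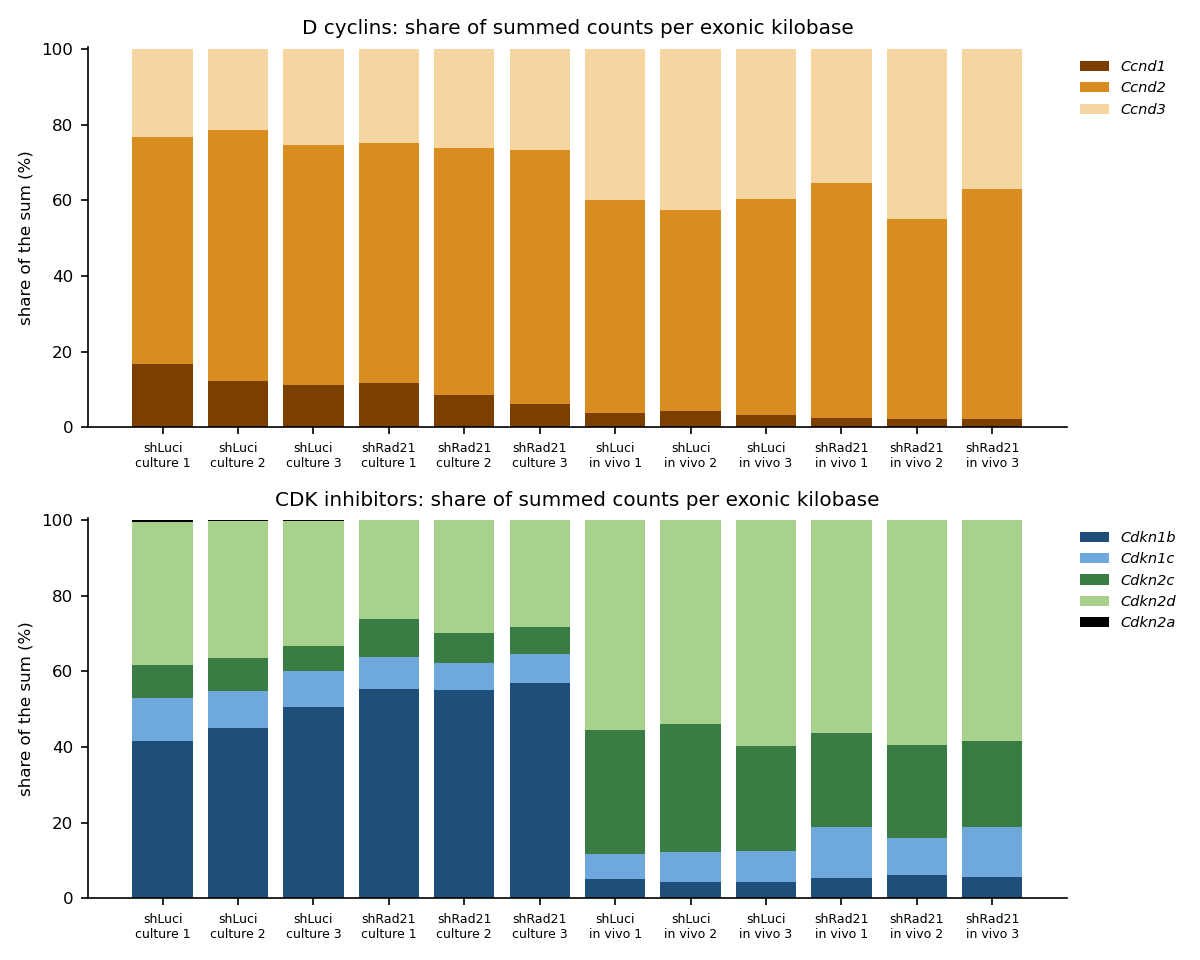
Share of each D cyclin (top) and each of the 5 CDK inhibitors followed (bottom, Cdkn1a and Cdkn2b not included) in the summed counts per exonic kilobase, in percent from 0 to 100 (vertical axes), for the 12 libraries (horizontal axes). Cdkn1b takes between 41.4% and 56.9% of these 5 inhibitors in culture and at most 6.14% in vivo, and Ccnd1 at most 4.22% of the D cyclins in vivo.

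The tested partners of G1 and S entry were *Cdkn1a*, E-type cyclins, Cdk2, retinoblastoma proteins, E2F factors with *Tfdp1* and *Tfdp2*, and ubiquitin ligase parts. *Cdk7*, *Ccnh*, *Mnat1*, *Cdc25a*, *Cdc37*, and *Ambra1* were also among them. Of these 28 genes, none rose with edgeR in either experiment. In culture 2 fell (*Cdkn1a* and *Rb1*), and in vivo 3 fell (*Cdkn1a*, *E2f2*, and *Cks1b*), with medians of -0.02 and -0.06. Over all genes, 6.18% were called higher and 8.06% lower in culture, and 5.65% and 5.32% in vivo. Blocked on replicate number, edgeR called 1 partner higher in culture, as it did without the filter and without shLuci replicate 1, and it called 2 higher without shLuci replicate 3. At an unadjusted p under 0.05, 2 were higher in culture and 0 in vivo, and DESeq2 called 0 as higher in both. *Cdkn1a*, the third CIP/KIP inhibitor and a p53 target, fell in both experiments, from 158 ± 30.1 to 85.9 ± 15.99 CPM (SD, n = 3) in culture and from 17.5 ± 5.89 to 5.08 ± 0.917 CPM in vivo, log2 fold changes of -0.87 and -1.76 with adjusted p of 0.00373 and 0.00157 by edgeR. *Cdkn1a* thus went the other way from *Cdkn1b* in culture and from *Cdkn1c* in vivo. *Rb1*, the retinoblastoma gene, fell in culture (-0.44, adjusted p = 0.0404 by edgeR), a call that held only without shLuci replicate 1 when single libraries were left out (adjusted p of up to 0.16). In vivo *E2f2* (-0.75, adjusted p = 0.00277 by edgeR) and *Cks1b*, a cofactor in the degradation of inhibitors (-0.43, adjusted p = 0.00293), fell. *Ccne1* and *Ccne2*, the E-type cyclins, had adjusted p between 0.268 and 0.984 by edgeR in the 2 experiments.

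Proliferation markers fell in vivo. Of 20 markers, 12 fell in vivo, beside 5.32% of all genes, and the median log2 fold change was -0.36 with all 20 below 0. *Mki67*, *Top2a*, and *Cdk1* had log2 fold changes of -0.44, -0.60, and -0.46 with adjusted p of 0.0131, 0.00375, and 0.00512 by edgeR. The count was 8 without shLuci replicate 1, 10 without shLuci replicate 2, 13 without shLuci replicate 3, 6 without shRad21 replicate 1, 17 without shRad21 replicate 2, and 3 without shRad21 replicate 3, and *Mki67* lost its call without shRad21 replicate 1 (adjusted p = 0.05485 by edgeR) or 3 (0.0595). In culture edgeR and DESeq2 both called 0 of the 20, with 5 at an unadjusted p under 0.05 and a median of 0.01. The interaction called 2 of the 20 with edgeR and 8 with DESeq2, and all 20 differences were above 0. It called 0 without shLuci culture replicate 2, shRad21 culture replicate 1 or 2, or shRad21 in vivo replicate 1 or 3, and 6 without shRad21 in vivo replicate 2.

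Of 29 tested regulators known to act on CDK inhibitors or D cyclins, 2 rose and 4 fell in culture, and 4 rose and 2 fell in vivo, beside 6.18% of all genes higher and 8.06% lower in culture and 5.65% and 5.32% in vivo. *Foxo1*, a factor that activates *Cdkn1b*, rose in both (0.43 and 0.51, adjusted p = 0.0108 and 0.00417 by edgeR), in culture not without shRad21 replicate 3 (adjusted p = 0.0546). *Cebpa*, a myeloid factor that restrains the cell cycle, fell in both (-0.98 and -0.99, adjusted p = 0.000872 and 0.00118 by edgeR). *Myc*, which drives cell cycle entry, fell in culture from 377 ± 28.8 to 174 ± 11.6 CPM (log2 fold change -1.11, adjusted p = 3.18e-05 by edgeR) and was at -0.12 in vivo (adjusted p = 0.491). *Mycn*, its paralog, rose in vivo from 167 ± 23.9 to 374 ± 38.8 CPM (1.18, adjusted p = 0.000189 by edgeR) and was at -0.08 in culture (adjusted p = 0.644). *Gfi1*, a repressor that limits stem cell division, rose in culture (0.98, adjusted p = 0.000888 by edgeR) and fell in vivo (-0.97, adjusted p = 0.000189). In culture *Kmt2a* (-0.34) and *Fos* (-1.44) also fell, with adjusted p of 0.0246 and 0.0374 by edgeR. *Kmt2a* lost its call without shLuci replicate 2 or shRad21 replicates 2 or 3 (adjusted p of up to 0.126), and *Fos* without any library but shLuci replicate 1 (up to 0.15). In vivo *Jun* (0.60) and *Max* (0.35) also rose, with adjusted p of 0.00278 and 0.0423 by edgeR, *Max* not without shLuci replicates 2 or 3 or shRad21 replicates 1 or 2 (up to 0.136).

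**Figure D5:**
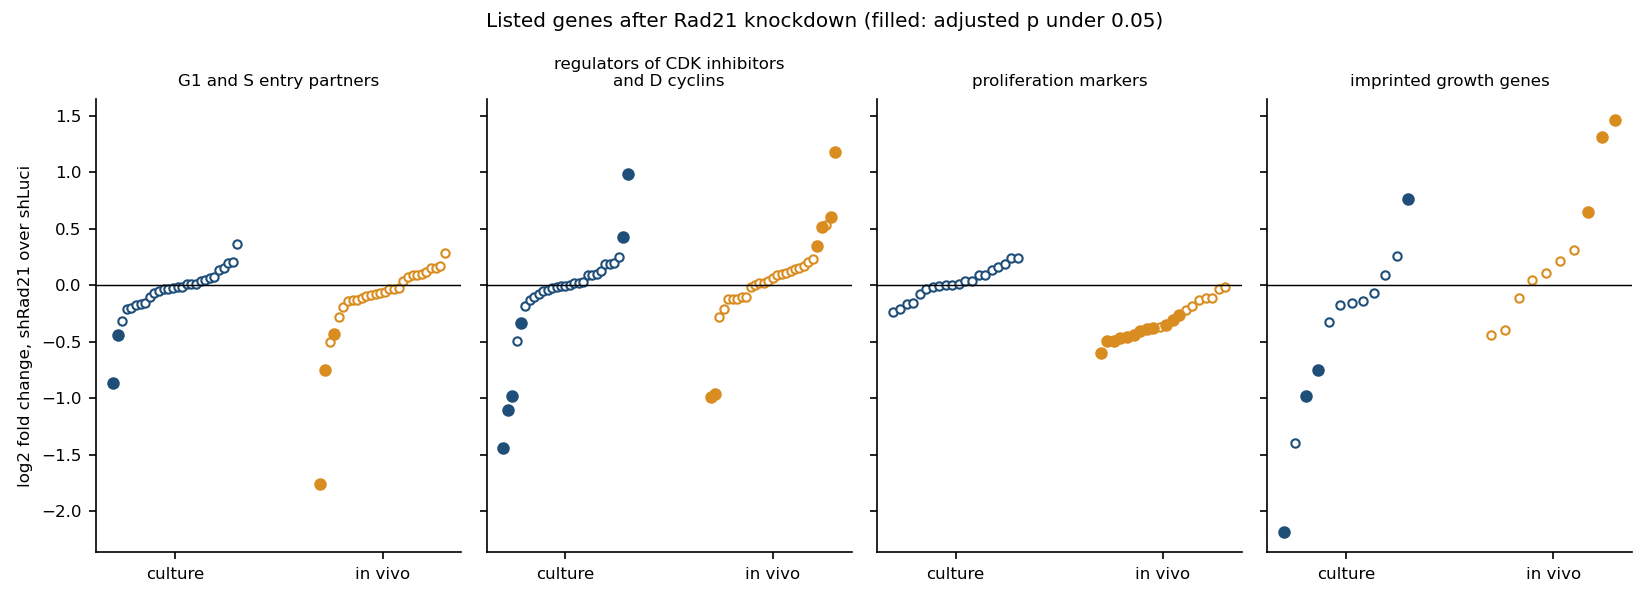
Log2 fold change of shRad21 over shLuci (vertical axis) for each tested gene of 4 lists, in culture and in vivo (horizontal axes), with filled points at an adjusted p under 0.05. All 20 proliferation markers lie below 0 in vivo and on both sides of 0 in culture.

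*Cdkn1c* is one of 15 imprinted growth genes that were listed. Of the 10 tested in vivo, 3 rose and 0 fell with edgeR, beside 5.65% of all genes higher and 5.32% lower, where 3 had an unadjusted p under 0.05 and DESeq2 also called 3 higher and 0 lower. The others that rose were *Grb10*, an inhibitor of growth factor signalling, from 21.9 ± 5.48 to 59.8 ± 7.54 CPM (log2 fold change 1.47, adjusted p = 0.000532 by edgeR), and *Ndn* (1.31, adjusted p = 0.0138), the latter not without shRad21 replicate 3 (adjusted p = 0.0581). In culture 1 of 12 rose and 3 fell, beside 6.18% and 8.06% of all genes. *Igf2r* rose (0.76, adjusted p = 0.00142 by edgeR). Those that fell were *Phlda2* (-0.75, adjusted p = 0.0121 by edgeR), *Meg3* (-2.18, adjusted p = 0.00172), and *Dlk1* (-0.98, adjusted p = 0.0105). *Meg3* and *Dlk1* lie in 1 imprinted cluster.

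Neighbours were taken as the nearest protein-coding gene on each side that passed the filter in an experiment, so untested genes were skipped and gaps reached 4039485 bases (*Tusc1*, for *Cdkn2a*). Of 18 tested in culture, where 14.2% of all genes were called, edgeR called 0, with 2 at an unadjusted p under 0.05, and *Mtap* had an adjusted p of 0.0523 by DESeq2. In vivo, where 11% of all genes were called, it called 1 of 19, *Mtap*, on one side of *Cdkn2a* (log2 fold change 0.49, adjusted p = 0.00416 by edgeR). In culture *Mtap* was at 0.26 (adjusted p = 0.0635 by edgeR) and passed in 4 alternatives, with the replicate number as a block among them (0.27, adjusted p = 0.0267).

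Over the 12 libraries, after the mean of each experiment was subtracted, the log2 CPM of *Cdkn1b* was most like that of *Gp1ba*, a platelet receptor gene (Pearson r = 0.98), followed by *Elmo1* and *Tmem140* (0.97 each). For *Cdk6* the most alike of 10063 genes was *Atr*, a kinase of the DNA damage response (0.98), for *Ccnd3* it was *Cmtm3* (0.97), for *Cdkn1c* *Eid2* (0.95), and for *Cdkn2c* *Cdc123* (0.94). Among the 9 genes themselves, r was lowest for *Ccnd3* with *Cdk6* (-0.90) and highest for *Cdkn1b* with *Ccnd3* (0.77). The 12 points share their libraries, and the knockdown itself contributes to these values, which are given as a description.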

How the data were processed

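RNA-seq was done on 12 libraries, 3 in each of 4 groups, assigned from the labels. Per the study's methods and the submitters' processing notes, the authors demultiplexed with bcl2fastq 1.8.4, checked reads with FastQC 0.11.3, removed rRNA reads, trimmed, mapped to GRCm38 (mm10) with TopHat2 2.0.11, and counted on genes with HTSeq 0.6.1. The deposited values are these raw counts, whole numbers without normalization. Strand setting and annotation release are not given in the sources used here. The 2 library kits differ between the experiments, so levels were compared across them with that limit.

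Counts were scaled with TMM and tested with edgeR 4.0.16 (R 4.3.3) after filterByExpr (10 counts at the median library size, 15 in total), in separate fits per experiment, and over all 12 libraries for controls and interaction, two-sided, adjusted after Benjamini and Hochberg, at a threshold of 0.05. SE values are the log2 fold change divided by the square root of the F statistic. With library totals of 15235129 to 29846689 counts, counting error limited *Cdkn2a* most among the 10 genes. For the others, counting error and the spread between replicates were not separated. Exonic lengths, overlaps, and positions came from GENCODE M21, in which 45143 of the 46078 identifiers were found, and promoters from a RefSeq table matched for 7 of the 10 genes, the others not analysed here. Exonic length was the union of the exons of all annotated transcripts of a gene, which can exceed the length of the transcripts in use. The steps were tested on simulated counts, and figures drawn with matplotlib 3.10.9.

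Genes named by rule were the 10 genes and *Rad21*, and listed genes past the threshold in a knockdown comparison or where a statement is about their list. Of the proliferation and cell type markers past it, only some were named. Also named were the nearest protein-coding neighbours that passed the filter. The rule added the 3 genes with the highest Pearson r among those with a mean log2 CPM of at least 3 in both experiments, of which some were printed. The genes, lists, and tests were chosen with earlier results of these data known. In culture the deviations of same-numbered libraries from their group means correlated (r between 0.26 and 0.29, against -0.35 to 0.06 for other pairs). The numbers, taken from the labels, may therefore pair the cultured libraries. The main tests did not use this pairing, and the replicate block was run only as an alternative. In vivo same-numbered libraries did not stand out (0.02 to 0.09, against -0.12 to 0.07). Alternatives were DESeq2 1.42.0, other scalings and filters, the replicate block, a single model of all libraries, raw counts in place of counts per kilobase, the omission of each library, and, for the CIP/KIP share, *Cdkn1a* and *Cdkn2b* added. The CIP/KIP share and its alternatives were added after seeing the data. Some items are not reported here.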

Additional observations from a re-analysis of the deposited data

Results flagged for a closer look

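Among the genes carried through the alternatives, 9 had a knockdown effect that differed between culture and in vivo in the edgeR interaction test, given here as the log2 fold change in culture minus that in vivo. Of the 10 genes of G1 control this was *Cdkn2c* (0.86), higher after knockdown in 3 of 3 libraries in culture and lower in 3 of 3 in vivo.

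Regulators of the pathway differed as well. *Gfi1* (1.96) had the widest difference of these 9, *Myc* (-0.97) and *Mycn* (-1.25) each moved in 1 experiment, and *Jun* differed by -0.70. The imprinted gene *Grb10* differed by -1.64, and the proliferation marker *Cdk1* by 0.46. Of the stem and progenitor markers, *Slamf1* (-0.83) rose and *Kit* (-0.99) fell in both experiments, by different amounts. A further one, *Cd34*, was not carried through the alternatives and differed in the other direction (0.47, adjusted p = 0.00832 by edgeR). Its log2 fold changes were 0.20 in culture and -0.26 in vivo. Leaving out single libraries ended the call for *Jun*, *Cdk1*, and *Slamf1*, with adjusted p of up to 0.119, 0.074, and 0.124 by edgeR, and for none of the other 6 of the 9. The library kit, sorted population, and lane differ between culture and in vivo, and their parts cannot be told apart.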

How the results depend on the processing

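Over 549 alternative values for the 9 tested genes of G1 control, 496 kept direction and side of the threshold, 25 fell short of it, 14 newly passed it, and 14 changed sign, the last all among values near 0 that were not called. For the other genes the counts were 753, 50, 6, and 10 of 819. The number of genes called over all genes, 2213 in culture and 1749 in vivo, was between 1352 and 2817 and between 951 and 1562 when single libraries were left out, which leaves fewer samples, and 2829 in vivo without the filter. The interaction, with 796 calls, gave 492 to 845 without single libraries, 1294 with DESeq2, and 1409 without the filter. Sign changes when single libraries were left out gave ranges of -0.31 to 0.12 (*Ccnd1*, interaction), -0.049 to 0.042 (*Cdk1*, culture), -0.01 to 0.22 (*Cdk4*, culture), -0.17 to 0.064 (*Cdk6*, controls), -0.136 to 0.019 (*Cdkn1c*, culture), -0.042 to 0.177, -0.066 to 0.147, and -0.084 to 0.03 (*Cdkn2d*, interaction, culture, and in vivo), -0.24 to 0.08 (*Jun*, culture), -0.014 to 0.194 (*Kmt2a*, in vivo), -0.142 to 0.006 (*Mycn*, culture), and -0.159 to 0.052 (*Rb1*, in vivo). *Cdk1* in culture was also at 0.02 with scaling by library size and at 0.016 without the filter. The causes were not tested. Raw counts in place of counts per kilobase, which weight longer genes more, gave *Ccnd1* shares of 7.26% and 4.66% in culture (shLuci and shRad21) and 1.99% and 1.25% in vivo, *Ccnd2* shares of 69.0%, 69.6%, and 58.2% (culture shLuci and shRad21, in vivo shLuci), and log2 ratios of *Cdk4* to *Cdk6* of 0.21, 0.93, 0.91, and 1.07 in the same order of 4 groups. Blocking on the replicate number, edgeR called 3186 genes in culture, 1678 in vivo, and 991 in the interaction. Of the 9 genes only the calls of *Ccnd1* in culture and *Ccnd2* in vivo (adjusted p = 0.0335 by edgeR) changed. Same-numbered libraries did not stand out in vivo, so whether the numbers pair those samples is not known. Depth limits *Cdkn2a*, whose 0 counts in 5 libraries allow up to 3 counts each.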
